A study of Mus musculus with 4 samples.

Results

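The Dlx genes encode homeodomain transcription factors related to Distal-less of Drosophila. In the mouse, 6 of them lie in 3 pairs whose genes point towards each other, and each pair sits on the chromosome of a Hox cluster. Dlx1, Dlx2, Dlx5 and Dlx6 act in the ventral telencephalon, where they drive the formation of GABAergic interneurons, and Dlx5 and Dlx6 are needed in the limb bud for the central digits. Dlx3 acts in placenta, skin, hair and teeth, and the role of its partner Dlx4 is less well known. CTCF is a zinc-finger protein bound at chromatin domain borders and loop anchors, and enhancers between the genes of a pair and around it act on both partners.

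CTCF occupancy around these genes was read from ChIP-seq peak lists (chromatin immunoprecipitation, then sequencing) of 4 embryonic mouse tissues, all wild type, of B6CBAF1 background and with the same anti-CTCF antibody. About 30 embryos of embryonic day 10 (E10), staged from E9.75 in the protocol, gave the posterior trunk, dissected as tailbud with presomitic mesoderm and some somites, sparing the hindlimb bud where possible. The brain library pooled 6 telencephalons of E12.5, and distal and proximal forelimb, both E12.5, were data of an earlier study that were processed again. Each tissue had 1 library, so differences between tissues were not checked by replicates, and the trunk library differs from the others in stage as well as in tissue. Expression was not measured, so the labelled tissues could not be checked against marker genes. In bulk tissue, fewer cells with an occupied site and weaker occupancy in each cell cannot be told apart.

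The windows were the RefSeq spans of each pair with 100 kb on both sides, on mm10. They were chr2:71428113-71646754 for Dlx1/Dlx2, chr11:95020117-95246294 for Dlx3/Dlx4 and chr6:6763334-6982068 for Dlx5/Dlx6. Peaks of the 4 lists that shared at least 1 base were joined into union regions. The windows held 60 union regions of 121759 in the series, with 21 around Dlx1/Dlx2, 27 around Dlx3/Dlx4 and 12 around Dlx5/Dlx6. Of the 60, 56 were called in posterior trunk, 36 in brain, 33 in distal and 31 in proximal forelimb. With distal forelimb set to 1, the relative depths were 2.21 for trunk, 2.02 for brain and 1.08 for proximal forelimb. The whole lists held 106662, 74127, 64793 and 63873 peaks in the order trunk, brain, distal and proximal forelimb.

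RefSeq promoter sequences of GRCm38.p6, the assembly behind mm10, were matched for 2 of the 6 members, Dlx1 and Dlx2, and are shown with that of Sdhaf3, a neighbour of Dlx5 whose promoter held a region called in every tissue. Each runs from 250 bases before to 50 bases after the annotated gene start, 5′ to 3′ on the strand of the gene. For Dlx1, chr2:71529195-71529494 on the plus strand, capitals mark the 51 bases inside a CTCF peak of posterior trunk, and the brain peak of the same union region ended before the printed sequence. For Dlx2, chr2:71546705-71547004 on the minus strand, no base lay in a region. For Sdhaf3, chr6:6955768-6956067 on the plus strand, capitals mark the only match to the looser CTCF consensus described below.
Dlx1: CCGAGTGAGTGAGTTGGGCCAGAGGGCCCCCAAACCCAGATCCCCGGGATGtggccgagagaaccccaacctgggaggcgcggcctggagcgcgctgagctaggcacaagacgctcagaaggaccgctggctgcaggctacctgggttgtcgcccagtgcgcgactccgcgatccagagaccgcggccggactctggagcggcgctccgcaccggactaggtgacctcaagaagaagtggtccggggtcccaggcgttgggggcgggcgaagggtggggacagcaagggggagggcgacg
Dlx2: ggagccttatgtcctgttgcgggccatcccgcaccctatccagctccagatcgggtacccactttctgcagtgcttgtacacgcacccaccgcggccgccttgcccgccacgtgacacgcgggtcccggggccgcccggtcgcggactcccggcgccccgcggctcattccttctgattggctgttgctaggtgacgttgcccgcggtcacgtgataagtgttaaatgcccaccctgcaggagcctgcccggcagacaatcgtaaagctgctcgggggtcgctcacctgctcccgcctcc
Sdhaf3: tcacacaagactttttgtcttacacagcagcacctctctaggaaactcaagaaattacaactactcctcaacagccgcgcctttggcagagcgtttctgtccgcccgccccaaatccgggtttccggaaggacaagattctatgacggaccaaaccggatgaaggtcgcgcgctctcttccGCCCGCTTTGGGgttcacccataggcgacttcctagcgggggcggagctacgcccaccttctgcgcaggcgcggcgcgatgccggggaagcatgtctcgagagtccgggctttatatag

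Each pair had a strong CTCF site called in every tissue just outside it. These lay 1.08 kb from Dlx2, 1.14 kb from Dlx3 and 2.77 kb from Dlx5. Their lowest list percentiles over the 4 tissues were 85.0, 84.6 and 88.3, where the strongest peak of a list is at 100. All regions called in 4 tissues had median percentiles of 75.8 (trunk), 65.0 (brain), 59.9 (distal forelimb) and 59.4 (proximal forelimb). Ranked in trunk among those regions alone, the sites near Dlx2, Dlx3 and Dlx5 stood at 69.1, 68.2 and 85.8, lower than in the whole trunk list. How many other genes have such a site this close was not counted. Beyond Dlx2, chr2:71547838-71548410 lay 1.08 kb from its span, with authors' folds of 10.4 (trunk), 14.2 (brain), 16.6 (distal forelimb) and 16.5 (proximal forelimb). A fold here divides the pileup at a summit by its local background, and it is compared within a list only. The 4 summits of this region lay 1288 to 1300 bases upstream of the annotated start of Dlx2. Beyond Dlx5, chr6:6884841-6885395 lay 2.77 kb from the span, with folds of 12.7, 14.7, 17.2 and 15.4 in the same order of tissues. All 4 libraries had this site in the upper part of their list, at percentiles 93.1, 91.6, 91.4 and 88.3, where peaks are ordered by p and the strongest of a list is at 100. It was the highest of its window in trunk only. In brain, distal and proximal forelimb chr6:6914707-6915751, 32.6 kb from Dlx5, ranked above it, at 93.1, 93.0 and 91.0.

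On the Dlx3 side there was a row of 3 such sites. The region chr11:95118498-95118975 lay 1.14 kb from Dlx3 and had list percentiles of 84.6 (trunk), 85.6 (brain), 87.5 (distal forelimb) and 91.3 (proximal forelimb). In this order its folds were 8.65, 10.4, 11.2 and 12.8, beside medians of 9.72, 8.48, 8.72 and 8.28 for all regions called in 4 tissues. The trunk fold was thus below that median. At 2.54 kb, chr11:95116894-95117572 had 91.7, 96.1, 94.6 and 92.7. At 12.7 kb, chr11:95106636-95107422 was the highest-ranked region of the 3 windows in every list, at 96.0, 97.7, 98.5 and 98.4. Its folds were 11.7, 14.6, 17.9 and 18.0. The Dlx3 side held all 3 of the regions that stood in the top 10% of every list. These made 5.0% of the 60 regions, near the 3.99% of all union regions. Besides the last 2 sites, the third was chr11:95046845-95047695 in Itga3, an integrin gene. Dlx4, the partner at the other end, had its nearest region called in all tissues at 14.4 kb, chr11:95160742-95161212.

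**Figure D1:**
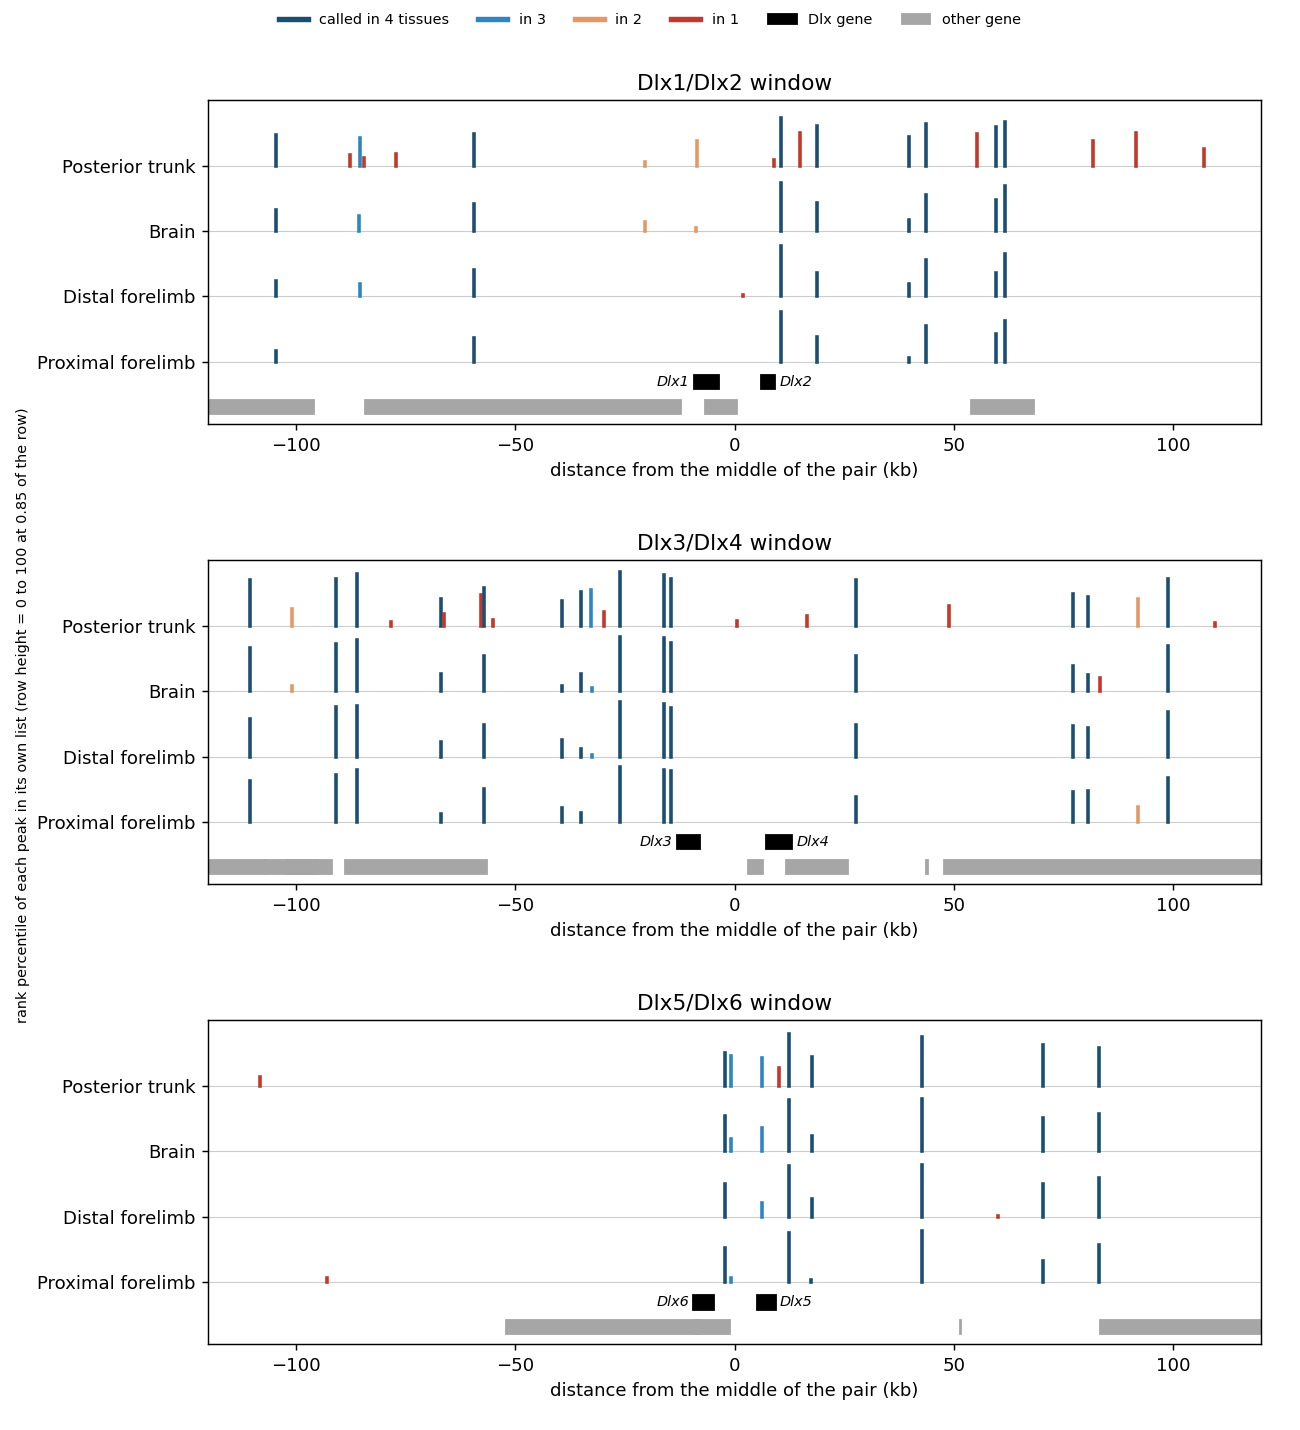
Position (horizontal, kb from the middle of the pair) and rank percentile within its own list (bar height, 0 to 100 per row) of every CTCF peak in the 3 Dlx windows in 4 tissues, with bars coloured by the number of tissues in which the region was called and genes drawn below. Tall bars in all 4 rows flank Dlx2, Dlx3 and Dlx5, and the Dlx6 side of the Dlx5/Dlx6 window holds 2 short bars, each in 1 tissue.

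The intervals between the partners differed among the pairs. The 9.83 kb between Dlx6 and Dlx5 held a region called in all 4 tissues, chr6:6870284-6870739, which lies in the long non-coding gene Dlx6os1, 2.31 kb from Dlx6. Its pileups were 105 in trunk, 108 in brain, 64 in distal and 69 in proximal forelimb, with folds of 5.51, 8.83, 8.90 and 9.26. A neighbour at 3.77 kb from Dlx6, chr6:6871735-6872151, was called in trunk, brain and proximal forelimb with folds of 4.77, 3.14 and 2.90. Neither region reached into Dlx6 or Dlx5.

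The other pairs had no region between the genes that more than 1 tissue shared. The 9.43 kb from Dlx1 to Dlx2 held chr2:71539255-71539454, called in distal forelimb alone with a fold of 2.69 and at percentile 2.27 of its list. The 15.2 kb from Dlx3 to Dlx4 held chr11:95133630-95133838, called in posterior trunk alone with a fold of 2.60 and at percentile 9.13. Both are near the bottom of their lists, and neither had −log10 q ≥ 5.

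Inside the gene spans, CTCF was called in Dlx1, Dlx2 and Dlx5, and in none of Dlx3, Dlx4 and Dlx6. Dlx5 held chr6:6878870-6879203, with folds of 4.19 in trunk, 4.95 in brain and 3.97 in distal forelimb, and no call in proximal forelimb. Dlx2 held chr2:71546199-71546552 in trunk alone, at a fold of 2.04 and percentile 9.63, with its summit 385 bases downstream of the gene start. Dlx1, whose RefSeq span begins upstream of the start in the promoter table, held chr2:71528450-71529245, joined from a trunk peak with a fold of 4.23 and a brain peak with a fold of 2.52. Their summits lay 537 and 880 bases upstream of the annotated Dlx1 start and 343 bases apart. When peaks were joined only with summits within 200 bases, they became 2 regions, each of 1 tissue. By comparison, the summits of the 28 regions called in all tissues spread over a median of 18 bases and at most 69.

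The antisense gene Dlx1as, which overlaps Dlx1, was touched by 0 regions, and Dlx6os2, inside Dlx6, also by 0. Dlx4os, which starts inside Dlx4, held 1 region, chr11:95149523-95149917, called in trunk alone with a fold of 2.73. These non-coding partners therefore added 1 region called in all tissues, the one in Dlx6os1.

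The sides of each window were unequal in regions called in all 4 tissues. Around Dlx1/Dlx2 the Dlx1 side had 2 of 7 and the Dlx2 side 6 of 11. Around Dlx3/Dlx4 the Dlx3 side had 10 of 17 and the Dlx4 side 4 of 9. Around Dlx5/Dlx6 the Dlx5 side had 5 of 7 and the Dlx6 side 0 of 2. These counts include the strong sites near Dlx2, Dlx3 and Dlx5, and over the series 42.4% of regions were called in all tissues.

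The Dlx6 side was the emptiest flank of the 3 windows. From chr6:6779815 to chr6:6870283, the base before the region in Dlx6os1, no list had a peak over 90.5 kb. This gap was longer than 96.9% of the gaps between neighbouring regions in the series, whose median was 10.7 kb. It was picked as the longest of the 11 gaps in its window, so a high place among single gaps is not by itself unusual. The longest region-free stretches elsewhere were 38.7 kb in the Dlx1/Dlx2 window, on the Dlx1 side, and 27.9 kb in the Dlx3/Dlx4 window, on the Dlx4 side. They were longer than 87.1% and 80.0% of the gaps in the series. Beyond the gap were chr6:6764325-6764623, called in trunk with a fold of 2.89, and chr6:6779615-6779814, called in proximal forelimb with a fold of 3.20. At list percentiles of 15.7 and 7.10, both were weak.

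By density, Dlx3/Dlx4 was the richest window and Dlx5/Dlx6 the poorest. They had 11.9 and 5.49 regions per 100 kb, and Dlx1/Dlx2 had 9.60. The same measure over windows of 21883 protein-coding genes had a median of 7.13 with quartiles of 4.26 and 9.68, and 90.0%, 74.3% and 35.0% of them had fewer regions per 100 kb than Dlx3/Dlx4, Dlx1/Dlx2 and Dlx5/Dlx6. For regions called in all 4 tissues the densities were 6.19, 3.66 and 2.74 per 100 kb against a median of 3.30, and 86.0%, 55.9% and 40.7% of gene windows had fewer.

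Regions called in all 4 tissues were 14 of 27 around Dlx3/Dlx4, 6 of 12 around Dlx5/Dlx6 and 8 of 21 around Dlx1/Dlx2. Across all union regions the share was 42.4%. The Dlx shares ran from 38.1% around Dlx1/Dlx2 to 51.9% around Dlx3/Dlx4, on both sides of it, and 28 of 60 is 46.7%. Regions called in 1 tissue only were 10, 4 and 10, or 24 of 60, where the background was 39.6%. Both shares lay near the background.

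**Figure D2:**
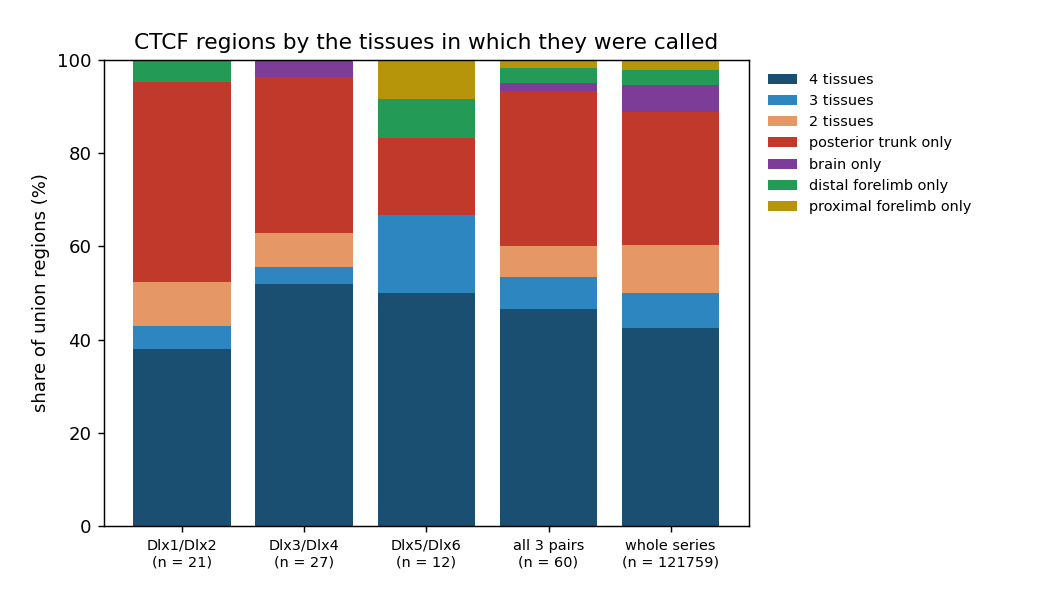
Share of union regions (vertical axis, %) by the tissues in which they were called, for each Dlx window, for the 3 together and for the whole series, with the number of regions under each bar. The called-in-4 share runs from 38.1% around Dlx1/Dlx2 to 51.9% around Dlx3/Dlx4, beside 42.4% of all regions.

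Posterior trunk accounted for 20 of the 24 regions called in 1 tissue, with 9 around Dlx1/Dlx2, 9 around Dlx3/Dlx4 and 2 around Dlx5/Dlx6. These make 42.9%, 33.3% and 16.7% of the regions in each window, beside a background of 28.4% trunk-only regions. Most were weak, with trunk list percentiles from 3.94 to 59.4 and a median of 21.1, while the 28 regions called in all tissues ran from 43.4 to 96.0 in the same list. The median of the 28 was 72.6. Over the series these medians were 19.9 and 75.8, so the Dlx windows were near the background in this. The trunk library was the deepest and its list the longest, with a relative depth of 2.21 beside 2.02 for brain. Trunk pileups were scaled to the depth of each other library, as if occupancy were the same there. The Poisson chance of a call was then at least 0.95 for 14 of the 20 in brain. It was so for 6 of the 20 in each forelimb list. The reason for the missing calls was not tested. In lists of equal length trunk-only regions fell to 5, 1 and 0, or 6 of 44, beside 6.48% over the series, and after scaling to the shallowest depth they were 6, 5 and 1, or 12 of 46, beside 19.6%.

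The trunk-only regions that reached percentile 50 of the trunk list numbered 4 of 20, and 3 of them lay beyond Dlx2. Over all trunk-only regions this share was 4.37%, and the split at 50 was chosen after the values were seen. The highest fold was 6.94 at chr2:71628636-71629187, 81.9 kb from Dlx2, with a pileup of 91. Nearest the gene was chr2:71552131-71552411, 5.38 kb from Dlx2, with a fold of 4.81 and a pileup of 125. The third beyond Dlx2, chr2:71592424-71592809 in the non-coding gene Gm36857, had a fold of 5.08, and chr11:95075303-95075695 in Itga3, on the Dlx3 side, had 4.54. All 4 stayed trunk-only at −log10 q ≥ 5, in lists of equal length and after scaling to the shallowest depth.

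**Figure D3:**
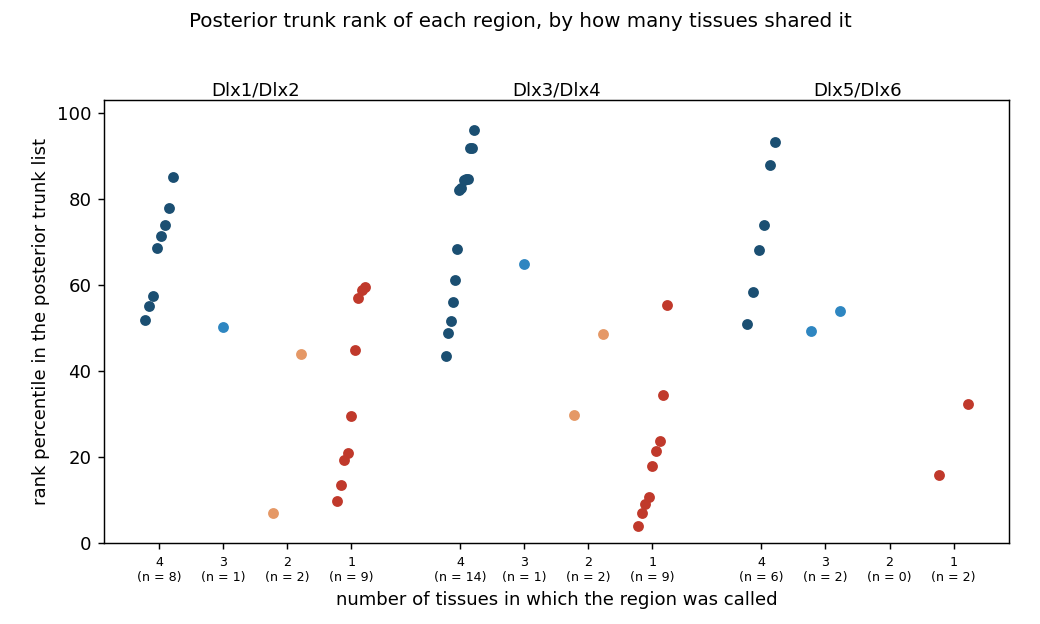
Rank percentile in the posterior trunk list (vertical axis) of each Dlx region called in trunk, by window and by the number of tissues that shared it, with 1 point per region. Regions called in 4 tissues sit at 43.4 or above, and trunk-only regions at 59.4 or below, with 3 Dlx1/Dlx2 points and 1 Dlx3/Dlx4 point above 50.

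Brain, where Dlx1, Dlx2, Dlx5 and Dlx6 are expressed ventrally, had 1 region of its own among the 60, beside 5.92% of all union regions. It was chr11:95216285-95216528, in the non-coding gene Gm11515 beyond Dlx4, with a fold of 3.26, and it stayed brain-only at −log10 q ≥ 5, at equal list length and after scaling. The region chr2:71516888-71517170, 10.9 kb from Dlx1 and called in trunk and brain as deposited, also became brain-only in some settings. This was so at −log10 q ≥ 5 and at equal list length, and after scaling it was called in no tissue. Distal forelimb had 2, the region between Dlx1 and Dlx2 and chr6:6932754-6932991, 50.7 kb from Dlx5, with a fold of 2.73, where the background was 3.11%. Proximal forelimb had 1, on the Dlx6 side, beside a background of 2.23%. The 3 forelimb regions ranked at percentiles 1.75 to 7.10 of their lists, and none of them had −log10 q ≥ 5. No region was called in both forelimb parts and not in brain, a pattern that took 1.80% of all regions, but chr11:95093658-95093959, 26.2 kb from Dlx3, lost its brain call and took it at −log10 q ≥ 5, at equal list length and after scaling. After scaling chr2:71577068-71577432, 30.3 kb from Dlx2, took it too. Among the 4 regions of brain or forelimb alone as deposited, the highest list percentile was 23.3, of the brain region beyond Dlx4.

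Regions called in 2 or 3 tissues numbered 8 of 60, beside 18% of all regions. Trunk and brain without forelimb had 3 (background 5.46%), which were the region in Dlx1 with its separate trunk and brain summits, chr2:71516888-71517170 in the aminopeptidase gene Metap1d and chr11:95032322-95032580 in Pdk2, a kinase gene of pyruvate metabolism. Proximal forelimb alone was missing from chr2:71451777-71452135, from chr11:95100384-95100820 and from the region in Dlx5, a pattern of 2.91% of regions. Distal forelimb alone was missing from the region at 3.77 kb from Dlx6 (background 2.85%), and chr11:95225053-95225460 was called in trunk and proximal forelimb only (background 2.09%). The most uneven of these was chr11:95100384-95100820, 19.3 kb from Dlx3, with pileups of 142 in trunk, 27 in brain and 18 in distal forelimb and list percentiles of 64.8, 4.62 and 1.98. At −log10 q ≥ 5 it was called in trunk alone.

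For the 28 regions called in every tissue, strength was compared by the place of each region among all 51657 such regions, ordered by p within 1 library. This shared rank has the same length in each list, which the list percentiles do not. The range of a region's shared rank over the 4 tissues had a median of 12.4 points around Dlx1/Dlx2, 14.9 around Dlx3/Dlx4 and 19.5 around Dlx5/Dlx6, beside 14.0 over all shared regions, with quartiles of 8.66 and 20.8. Ranges above 25 points were found for 5 of the 28, a share near the 15.1% of all shared regions. They were 3 regions beyond Dlx4 and 2 regions of the Dlx5/Dlx6 window.

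The region between Dlx6 and Dlx5 was among them. Its shared rank was 18.5 in trunk and 46.7 in brain, against 47.8 in distal and 51.6 in proximal forelimb. By this rank trunk stood apart, and the 3 E12.5 libraries were close together. The rank is by p, which depends on the local background as well as on the pileup. That background was 18.2 in trunk, 11.3 in brain, 6.3 in distal and 6.56 in proximal forelimb. The lowest backgrounds of these lists were 9.34, 8.53, 4.23 and 4.58. Whether the background lowers the trunk rank here was not tested. The range of 33.1 points exceeded that of 95.3% of shared regions. The strong site beyond Dlx5 differed little, with 85.8, 87.9, 89.2 and 85.6, a range of 3.67 points and smaller than in most shared regions. At the Sdhaf3 promoter, chr6:6955486-6956044, the shared ranks were 34.7, 52.9, 61.3 and 58.3, with trunk again lowest.

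Beyond Dlx4, neighbouring regions in Gm11515 were stronger in forelimb than in brain and trunk. At chr11:95213581-95214005 the shared rank was 11.2 in trunk and 8.14 in brain, against 38.8 in distal and 44.6 in proximal forelimb. At chr11:95210120-95210547, the next region towards Dlx4, these were 15.6, 22.5, 43.2 and 43.8. The pileups at the first region were 84, 45, 58 and 63, so brain was lowest although its library was deeper than both forelimb libraries. Both are over 60 kb from Dlx4. Nearer to it, chr11:95160742-95161212 ran the other way, with 62.8 in trunk, 48.4 in brain, 46.6 in distal and 32.9 in proximal forelimb.

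Over all 28, the mean forelimb rank was above the brain rank in 18, beside 49.4% of all shared regions. The median difference of forelimb minus brain ran from 0.738 points around Dlx5/Dlx6 to 1.63 around Dlx1/Dlx2, inside the quartiles of the series at -5.06 and 4.90. Trunk had the lowest shared rank of the 4 tissues in 15 of the 28, beside 33.4% of all shared regions. The highest pileups of the lists were 365 to 399, and the regions flanking Dlx2, Dlx3 and Dlx5 reached 292 to 377 in trunk. Whether this ceiling lowers trunk ranks was not tested.

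**Figure D4:**
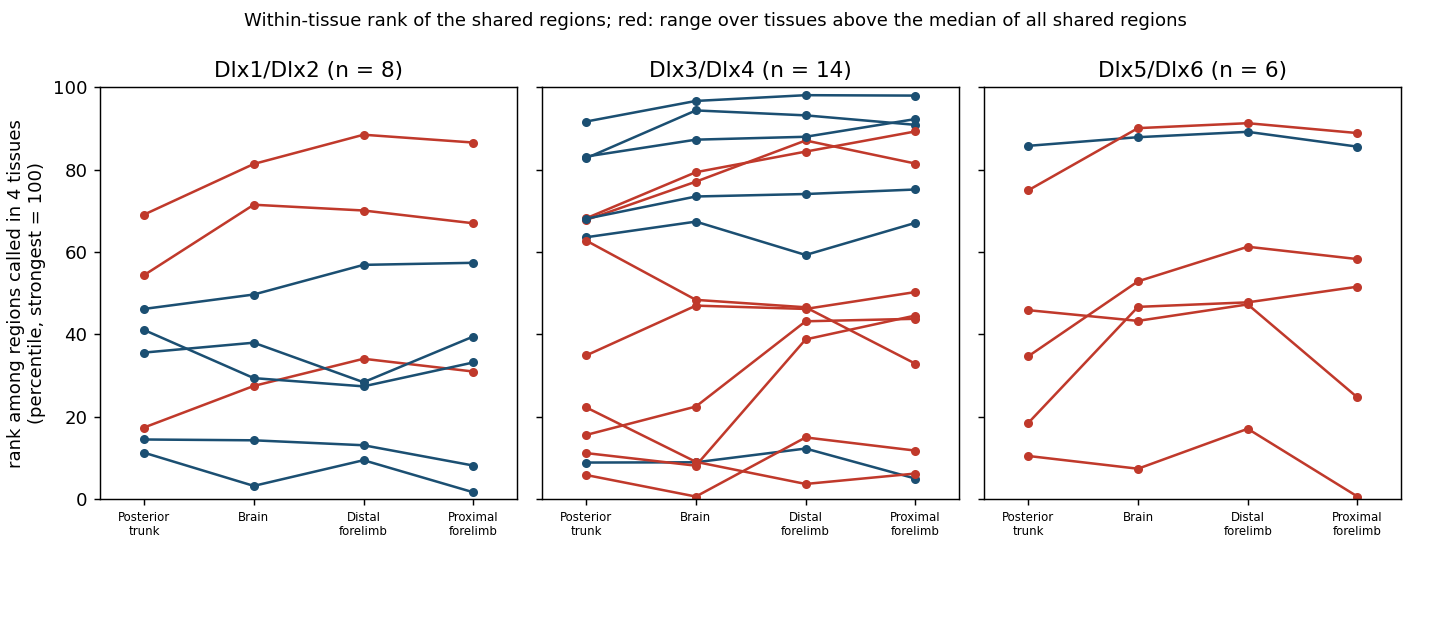
Shared rank (vertical axis, percentile among the 51657 regions called in all 4 tissues, by p within each library) of the 28 shared Dlx regions in 4 tissues, with 1 line per region and red for ranges above the series median of 14.0 points. A Dlx5/Dlx6 line stays between 85.6 and 89.2, while a pair of Dlx3/Dlx4 lines climbs from brain to forelimb and a Dlx5/Dlx6 line climbs from trunk at 18.5 to the other tissues.

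Neighbouring genes carried part of the shared regions. Hat1, a histone acetyltransferase gene, Metap1d and Samd14 each held 1, Itga3 held 3, Gm36857 2 and Gm11515 3. The window promoters in the RefSeq table numbered 18, and 4 of them overlapped a region. Besides Dlx1, reached by the trunk peak alone, and Sdhaf3, these were Metap1d, whose promoter lay wholly in a trunk-only region with a fold of 2.64, and the non-coding gene Gm11513, with 74 of its bases in a region of trunk and brain. Only at Sdhaf3, a mitochondrial assembly factor gene, was the overlapping region called in all tissues, with folds of 9.24, 10.2, 11.8 and 10.7 in the order trunk, brain, distal and proximal forelimb.

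The promoters were searched on both strands for a core of the CTCF consensus, CCA, AG and GGC with any 2 bases between each, and for a looser form that leaves the A of CCA open too and so contains every match of the first. The first was in 0 of the 18 window promoters and in 2.43% of all 32851 promoters, and in 14.5% of the 1935 promoters that held a summit of a region called in all tissues. The looser form was in 1 of the 18, at Sdhaf3, and in 8.61% and 36.5% of the same sets. That match, CCCAAAGCGGGC on the minus strand, took bases 182 to 193 of the printed sequence, where its complement stands in capitals. The 4 summits of the region fell on bases 21 to 46, at least 136 bases away. No match in the Dlx1 and Dlx2 promoters says only that these letters are absent from those windows of 300 bases.

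Regulators and targets of Dlx factors were counted in the same way, in windows of 100 kb on both sides of each span. The list of 20 genes held upstream or partner genes, among them Gsx2 and Nkx2-1 of the ventral telencephalon and Trp63, Msx1 and Tbx5 of the limb and its ectoderm, and genes downstream such as Gad1, Gad2 and Runx2. All 20 windows had at least 1 region called in all 4 tissues, as did 90.9% of protein-coding gene windows. The median share over the 20 windows was 46.0%. The 42.4% of the series is pooled over all regions, so it is a different measure. The share ran from 16.7% at Wnt5a, a limb outgrowth signal with 2 of 12 regions, to 64.7% at Sp7, an osteoblast factor with 22 of 34. All 20 had a trunk-only region, 8 a brain-only, 9 a distal-forelimb-only and 2 a proximal-forelimb-only region, beside 88.4%, 47.3%, 29.1% and 24.3% of protein-coding gene windows. The highest fold among the regions of 1 tissue was 5.90 in trunk near Trp63, at chr16:25648326-25648651.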

How the data were processed

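The members and gene lists were chosen with earlier results of these data known. Per the submitters' processing notes, the authors' tools were MACS2 2.1.1.20160309, SAMtools 1.9, Bowtie2 2.3.5 and cutadapt 1.16, with mm10. Options and use of a control library were not given in the sources used here. Each library has 1 deposited peak list, which gives per peak a fold (a ratio, summit pileup + 1 over local background + 1), a −log10 p, a −log10 q and a score made from q. Folds and p are the authors' values, and no q was above 0.05.

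Rows of 1 interval with several summits were merged to the strongest. Peaks of chromosomes 1 to 19, X and Y sharing at least 1 base were joined. Whole pileups and backgrounds were computed back from fold and p, matching the deposited −log10 p within 0.000309. Read totals are not in the lists and the absolute depth is unknown. Relative depth is the ratio of the lowest backgrounds (9.34, 8.53, 4.23 and 4.58 in the order trunk, brain, distal and proximal forelimb). With 1 library per tissue no test was run. Every region in the windows is counted, and the genes named were the members, genes in the windows and genes of the list of 20. Of that list, values are given for the genes with the highest and lowest share called in all tissues and the highest fold of 1 tissue. Others of the list were named as examples only. Joining and pileups were tested on simulated data. Gene spans came from RefSeq GRCm38.p6, and strands from its promoter table. Sequence of the regions outside promoters was not used here. Alternatives were −log10 q ≥ 5, lists of equal length, scaling of pileups to the lowest relative depth with a −log10 p of at least 5, joining by summits within 200 bases, 50 kb flanks and posterior trunk left out. Scripts ran in Python 3.11.15 with pandas 2.3.3, numpy 2.4.6, matplotlib 3.10.9 and scipy 1.17.1.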

Additional observations from a re-analysis of the deposited data

How the results depend on the processing

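Counts of regions called in every tissue moved by less than 1.5 times at −log10 q ≥ 5 (7, 12 and 5 for Dlx1/Dlx2, Dlx3/Dlx4 and Dlx5/Dlx6), in lists of equal length (8, 13 and 6), after scaling to the shallowest depth (7, 13 and 5) and with summits within 200 bases joined (8, 14 and 6). With posterior trunk left out, the regions called in every remaining tissue were 8, 14 and 6. Fewer calls are required, which can raise these counts. A region joined only through a trunk peak can split, which can lower them. Counts of regions called in 1 tissue only moved further. Around Dlx5/Dlx6 they were 2 at −log10 q ≥ 5, 2 in lists of equal length and 2 after scaling, around Dlx3/Dlx4 they were 2 at equal length and 6 after scaling, and around Dlx1/Dlx2 they were 6 after scaling. Trunk-only regions, 20 as deposited, were 18 at −log10 q ≥ 5, 6 in lists of equal length and 12 after scaling. Flanks of 50 kb, a smaller window by construction, gave 11 regions around Dlx1/Dlx2 with 5 called in all tissues and 4 in 1 only, 14 around Dlx3/Dlx4 with 7 and 6, and 7 around Dlx5/Dlx6 with 4 and 1. The looser consensus was in 1 window promoter and the stricter one in 0. Over the series, regions called in all 4 tissues were 48.9% at −log10 q ≥ 5, 58% in the equal lists and 53.9% after scaling. With trunk left out, 59.6% were called in every remaining tissue. No paired analysis was possible because there was 1 library per tissue. A missing peak in the shallower forelimb lists is not shown to be an empty site.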

Other observations

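Several peaks in the Dlx windows had 2 summits in the deposited lists. The widest region, chr6:6914707-6915751, 32.6 kb from Dlx5 and 1045 bases long, had 2 summits in posterior trunk, 380 bases apart with folds of 4.38 and 12.7, and 2 in distal forelimb, 382 bases apart with folds of 3.25 and 17.5. Their positions in both libraries differed by at most 10 bases. Brain and proximal forelimb had the stronger summit only. In posterior trunk, chr11:95041677-95042661, between Pdk2 and Itga3, had summits 576 bases apart with folds of 1.63 and 8.42. Peaks with several summits made 3.27% of the trunk list and 1.79%, 1.41% and 1.38% of the brain, distal and proximal forelimb lists.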
